A study of Mus musculus with 35 samples.

Results

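The small nucleolar RNA host genes are non-coding genes whose introns carry small nucleolar RNAs (snoRNAs). Gas5, Snhg1, Snhg3, Snhg4, Snhg5, Snhg6, Snhg8 and Snhg12 were taken by symbol from a count table of 49671 mouse genes, which makes 8 members, and each had 1 row. All 8 passed the filter on low counts, as did 17166 of all genes. RNA-seq was performed on hematopoietic stem and progenitor cells depleted of lineage-positive cells (lin- HSPCs), from the bone marrow of C57Bl/6 mice, with 5 libraries for each of 7 groups. The groups were Empty, G-NHX9, G-NHX9-8FA, G-NHX9-midi, G-NHX9-21FGAA, G-NHX9-midi-21FGAA and G-NHX9-DDNA. G-NHX9 is NUP98-HOXA9, a leukemia-associated fusion of the phenylalanine-glycine (FG) repeats of a nucleoporin with a DNA-binding homeodomain, tagged with mEGFP. In 8FA and 21FGAA, FG motifs are mutated. In midi the N-terminal part of the FG region is deleted, midi-21FGAA carries both changes, and in DDNA the homeodomain is mutated so that it binds DNA poorly. All constructs and the control vector Empty were delivered by lentivirus, the cells were sorted for the fluorescent proteins of the vectors, and all groups grew for 1 week in Methocult M3434, a methylcellulose medium, to which GM-CSF was added at 10 ng/mL. Mice were 8 weeks old except for Empty replicates 4 and 5 (9 and 10 weeks) and G-NHX9 replicate 1 (11 weeks). The labels number the libraries but do not say whether they came from separate animals or transductions, so p-values measure only the spread between these libraries.

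In a host gene the spliced exons are a by-product, or have a role of their own, while the snoRNA is released from the excised intron. Box C/D snoRNAs guide 2′-O-methylation of ribosomal and spliceosomal RNA, H/ACA snoRNAs guide pseudouridylation, and a few, such as U3 and U17 (Snora73), take part in cleavage of the ribosomal RNA precursor. Many host transcripts begin with a run of pyrimidines (a 5′-terminal oligopyrimidine, or 5′TOP, start), which they share with the messenger RNAs of ribosomal proteins. Such RNAs are taken into polysomes in growing cells, and as the host transcripts hold no long reading frame they are then degraded by nonsense-mediated decay. Gas5 was named for its accumulation in growth-arrested cells, and it also binds the glucocorticoid receptor.

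Gas5, Snhg1, Snhg5 and Snhg6 host box C/D snoRNAs, and Snhg3, Snhg4 and Snhg8 host H/ACA snoRNAs, while Snhg12 hosts both kinds. In the GENCODE M21 annotation (GRCm38), Gas5 lies at chr1:161034422-161038539 on the plus strand and holds 10 entries typed as snoRNA genes. Snhg1 lies at chr19:8723475-8726443 (plus strand) and holds 8, and Snhg12 at chr4:132308623-132311024 (plus strand) and holds 5. Among these, Snord80 in Gas5 and Snora16a in Snhg12 each stand as 2 overlapping entries, and 1 entry of Gas5 is named Mir5117. Snhg5 lies at chr9:88521050-88522929 (minus strand) with 2, Snhg6 at chr1:9941959-9944118 (minus strand) with 1, and Snhg8 at chr3:123507552-123508404 (minus strand) with 1. Snhg3 lies at chr4:132348014-132353686 (minus strand) with 2, on the same strand as the overlapping protein-coding gene Rcc1. Gas5, Snhg6 and Snhg3 overlap Zbtb37, Mcmdc2 and Gm17300, respectively, on the opposite strand. The library kit keeps the strand, but whether the counting used it was not given in the sources used here, so reads of these pairs may not have been told apart. Snhg4 was not found in this annotation and is described by its counts alone.

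The start sites are shown because they are where the translation-linked hosts resemble ribosomal protein genes. The RefSeq table of promoters (GRCm38.p6) had 7 windows for 6 of the 8 members. Each line gives the 25 bases before and the 25 bases from the annotated start, and capitals mark a run of C and T that opens with C, holds at least 4 further pyrimidines and lies whole within 10 bases of the start on either side.
Gas5, chr1:161034576-161034625 (plus): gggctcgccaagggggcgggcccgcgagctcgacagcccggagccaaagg
Gas5, chr1:161035141-161035190 (plus): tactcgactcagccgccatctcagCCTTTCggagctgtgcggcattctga
Snhg8, chr3:123508312-123508361 (minus): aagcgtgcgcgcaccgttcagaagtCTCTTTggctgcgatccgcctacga
Snhg12, chr4:132308653-132308702 (plus): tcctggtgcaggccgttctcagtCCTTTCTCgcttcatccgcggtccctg
Snhg3, chr4:132353662-132353711 (minus): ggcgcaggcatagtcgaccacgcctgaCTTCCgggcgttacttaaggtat
Snhg5, chr9:88522873-88522922 (minus): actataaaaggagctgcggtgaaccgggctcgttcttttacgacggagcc
Snhg1, chr19:8723462-8723511 (plus): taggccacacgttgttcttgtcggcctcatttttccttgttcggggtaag
Gas5 at its downstream start, Snhg8, Snhg12 and Snhg3 held such a run, which makes 4 of 7 windows. The run was found in 25.5% of the 32851 windows of all genes and in 48.5% of the 68 windows of cytosolic ribosomal protein genes. An E-box, CACGTG, which reads the same on both strands, was within 250 bases before and 50 after the start in 7.15% of all windows, and in 0 of the 7 member windows. The search depends on the annotated start, and a start that lies a few bases away would not be found by it.

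The hosted snoRNAs themselves were nearly invisible in this table. Of 29 snoRNA rows within the 7 annotated members, 26 had 0 counts in all 35 libraries, which allows up to 3 counts in a library, or 0.0396 to 0.0951 CPM (counts scaled to library size). All 26, of 60 to 137 bases, lie entirely within annotated exons of their host, since the annotation includes transcripts that keep the introns. The table had no count for 1235 of all 1507 snoRNA rows, or 82.0%. How the counting treated a read that lies on 2 genes was not given in the sources used here, and the part that it or the length of the snoRNA took was not tested. One of the rows without a count is that of Snord47 in Gas5, a box C/D snoRNA whose C and D boxes are in capitals. Of the 3 rows with counts, Snora73a and Snora73b lie within Snhg3 and Snord87, with 3 counts in total, within Snhg6. Snora73a and Snora73b are shown because they are the snoRNAs measured beside their host, with the terminal ACA box in capitals. They differ at 7 of 205 bases (96.6% identity), so reads may have been divided between them and each value is uncertain.
Snord47, chr1:161038082-161038158 (plus): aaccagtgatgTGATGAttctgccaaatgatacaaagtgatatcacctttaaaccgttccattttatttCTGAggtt
Snora73a, chr4:132352775-132352979 (minus): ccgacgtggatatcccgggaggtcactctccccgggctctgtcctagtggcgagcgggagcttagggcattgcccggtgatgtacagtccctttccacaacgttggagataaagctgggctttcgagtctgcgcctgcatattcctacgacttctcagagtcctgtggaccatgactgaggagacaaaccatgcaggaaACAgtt
Snora73b, chr4:132352322-132352526 (minus): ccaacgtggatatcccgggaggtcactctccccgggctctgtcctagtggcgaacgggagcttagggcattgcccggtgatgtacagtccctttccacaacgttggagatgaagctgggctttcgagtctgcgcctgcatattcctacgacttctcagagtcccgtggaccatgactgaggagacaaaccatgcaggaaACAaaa

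Libraries held 31559914 to 75810659 counts, and the lowest count of any member in any library was 181. Levels are given as CPM scaled by the trimmed mean of M values (TMM), and errors of group means as SD. Levels are not compared between genes, since the exon length by which they would be divided rests on the retained introns (3760 bases for Gas5, 851 without them). Hoxa9, the gene of the homeodomain partner of the fusion, was higher than in Empty by 1.74 to 6.62 on the log2 scale in 5 constructs, and the difference was 0.16 in G-NHX9-midi-21FGAA. Ptprc, which marks blood cells, was at a mean of 699 CPM and Kit, a progenitor marker, had group means between 45.2 CPM in G-NHX9 and 216 CPM in G-NHX9-midi-21FGAA. Of 6 lymphoid markers only Cd3g, with up to 76 counts, passed the filter, and it was at 0.0563 to 1.61 CPM in a library. Markers of progenitor and of several mature blood cells differed between groups as given below. In bulk RNA, fewer cells of a type and less of an RNA in each cell cannot be told apart.

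Most host genes were higher in the cells that carried G-NHX9, G-NHX9-8FA or G-NHX9-midi than in Empty, with the largest differences in G-NHX9-midi. At an adjusted p under 0.05 in edgeR's quasi-likelihood test (Benjamini-Hochberg over 17166 genes), 5 of 8 members rose in G-NHX9, where 16.9% of all genes tested did. In G-NHX9-8FA 7 members rose (13.4% of all genes), and in G-NHX9-midi 7 rose (20.5% of all genes). In G-NHX9-21FGAA 4 rose (14.7% of all genes). In G-NHX9-DDNA 2 rose (9.85% of all genes), and in G-NHX9-midi-21FGAA 1 rose and 1 fell (9.59% and 7.32% of all genes). The median log2 difference of the 8 members from Empty was 0.56 in G-NHX9, 0.67 in G-NHX9-8FA, 1.00 in G-NHX9-midi, 0.41 in G-NHX9-21FGAA, 0.23 in G-NHX9-midi-21FGAA and 0.29 in G-NHX9-DDNA, beside medians of all genes between -0.02 and 0.03. Every library was above every Empty library for 4 members in G-NHX9 (10.6% of all genes), 4 in G-NHX9-8FA (8.32%), 7 in G-NHX9-midi (13.4%), 1 in G-NHX9-21FGAA (9.05%) and 1 in G-NHX9-DDNA (5.82%), and below for 1 in G-NHX9-midi-21FGAA (5.49%). These 6 comparisons share the Empty libraries. The mean level was highest in G-NHX9-midi for 5 members, in G-NHX9-8FA for 2 and in G-NHX9 for 1, and lowest in Empty for 5 and in G-NHX9-midi-21FGAA for 3.

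**Figure D1:**
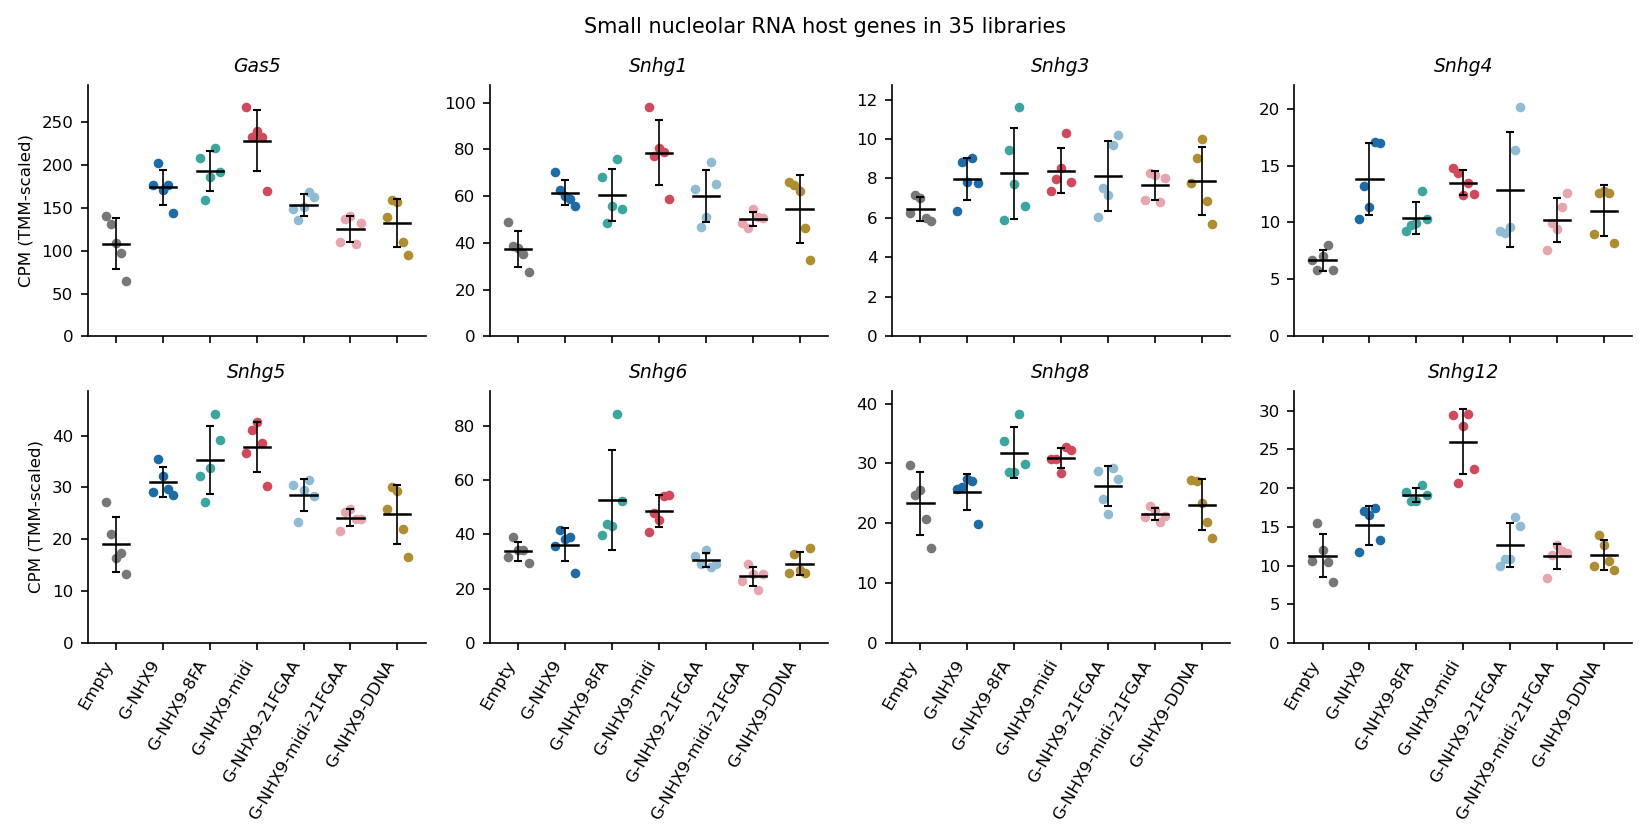
Each point is the TMM-scaled CPM of one host gene in one library, with 5 libraries for each of the 7 groups in the order of replicates 1 to 5. Horizontal lines are group means, and bars are SD. The scale starts at 0 and differs between genes. For Gas5 the G-NHX9-midi libraries lie between 170 and 267 CPM and the Empty libraries between 64.6 and 140.

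Among the hosts of box C/D snoRNAs, Gas5 was at 140, 131, 109, 97.1 and 64.6 CPM in Empty replicates 1 to 5. It was at 176, 202, 171, 176 and 144 CPM in G-NHX9, at 208, 159, 186, 220 and 192 CPM in G-NHX9-8FA, and at 267, 233, 240, 232 and 170 CPM in G-NHX9-midi. All libraries of these 3 constructs were above all Empty libraries, with Empty replicate 1 closest to them. Gas5 rose by 0.68 ± 0.15 (SE) on the log2 scale in G-NHX9 (adjusted p = 0.00086, edgeR), by 0.83 ± 0.16 in G-NHX9-8FA (adjusted p = 0.00011) and by 1.08 ± 0.16, or 2.11-fold, in G-NHX9-midi (adjusted p = 1.1e-06). In G-NHX9-21FGAA, Gas5 was at 136 to 168 CPM with a median of 151, which overlaps Empty, and rose by 0.50 ± 0.15 (adjusted p = 0.015). It was at 125 ± 15.2 CPM in G-NHX9-midi-21FGAA (log2 difference 0.21, adjusted p = 0.37) and at 132 ± 28.5 CPM in G-NHX9-DDNA (0.29, adjusted p = 0.20).

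Snhg1, the host of U22 (Snord22) and of a series of further box C/D snoRNAs, was at 48.9, 38.6, 37.7, 35.1 and 27.4 CPM in Empty. In G-NHX9 it was at 70.3, 62.5, 60.3, 59.0 and 55.7 CPM, and in G-NHX9-midi at 98.0, 77.3, 80.5, 79 and 58.6 CPM, with no overlap with Empty in either. The rise was 0.71 ± 0.16 in G-NHX9 (adjusted p = 0.00094) and 1.07 ± 0.16 in G-NHX9-midi (adjusted p = 3.1e-06). Among mice of 8 weeks only, an alternative chosen after the data were seen, the difference in G-NHX9 was 0.50 (adjusted p = 0.053). In G-NHX9-8FA and G-NHX9-21FGAA, where 1 or more libraries fell within the range of Empty, Snhg1 rose by 0.69 ± 0.16 and 0.68 ± 0.16 (adjusted p = 0.0017 and 0.0021). It also rose in G-NHX9-DDNA, by 0.54 ± 0.16 (adjusted p = 0.021), over a range of 32.5 to 66.2 CPM. This last call was lost when any one of G-NHX9-DDNA replicates 1, 2 and 3 or Empty replicates 4 and 5 was left out (adjusted p between 0.05 and 0.077).

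Snhg5, which holds Snord50a and Snord50b, was at 27.2, 21.0, 16.4, 17.4 and 13.3 CPM in Empty, and at 36.7, 41.1, 42.7, 38.5 and 30.3 CPM in G-NHX9-midi. Its G-NHX9 libraries, at 28.5 to 35.4 CPM, were likewise all above Empty. It rose by 0.70 ± 0.15 in G-NHX9 (adjusted p = 0.00061), 0.89 ± 0.15 in G-NHX9-8FA (adjusted p = 4.5e-05), 0.99 ± 0.15 in G-NHX9-midi (adjusted p = 3.9e-06) and 0.58 ± 0.15 in G-NHX9-21FGAA (adjusted p = 0.0047). Among mice of 8 weeks only, the difference in G-NHX9-21FGAA was 0.42 (adjusted p = 0.08). In G-NHX9-midi-21FGAA and G-NHX9-DDNA it was at 24.2 ± 1.64 and 24.8 ± 5.59 CPM, and neither passed the test (adjusted p = 0.12 and 0.085).

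Snhg6, the host of Snord87, followed another order. It was at 31.5, 39.1, 34.2, 34.1 and 29.4 CPM in Empty and at 35.6, 41.5, 38.3, 39.0 and 25.9 CPM in G-NHX9, ranges that overlap (log2 difference 0.10 ± 0.15, adjusted p = 0.67). In G-NHX9-8FA it was at 39.6, 43.6, 43.0, 84.3 and 52.1 CPM, with replicate 4 far above the others, and in G-NHX9-midi at 40.7, 47.8, 45.1, 54.2 and 54.4 CPM. All 10 of these libraries were above all Empty libraries, and Snhg6 rose by 0.64 ± 0.15 (adjusted p = 0.0019) and 0.53 ± 0.15 (adjusted p = 0.0062). The second call was lost among mice of 8 weeks only (0.46, adjusted p = 0.064). In G-NHX9-midi-21FGAA, at 22.7, 29.2, 25.4, 19.6 and 25.5 CPM, it was below every Empty library and fell by 0.46 on the log2 scale (SE 0.15, adjusted p = 0.037). That call was lost with unscaled library sizes (-0.32, adjusted p = 0.13) and without any one of 7 libraries, among them Empty replicates 2, 3 and 4 (adjusted p between 0.062 and 0.12).

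Of the hosts with H/ACA snoRNAs, Snhg12, which holds Snora16a, Snora44, Snora61 and the box C/D snoRNA Snord99, separated the groups most. It was at 10.6, 15.5, 12, 10.4 and 7.90 CPM in Empty, at 11.7, 17.0, 16.5, 17.4 and 13.3 CPM in G-NHX9, at 19.5, 18.3, 18.3, 20.4 and 19.1 CPM in G-NHX9-8FA, and at 29.4, 20.6, 28, 29.6 and 22.5 CPM in G-NHX9-midi. The last 3 groups did not overlap one another. When the 7 groups were ordered by the mean level of each member, 46 of 48 neighbouring pairs of groups overlapped, and both exceptions were these of Snhg12. It rose by 0.43 ± 0.16 in G-NHX9 (adjusted p = 0.036), 0.76 ± 0.16 in G-NHX9-8FA (adjusted p = 0.00044) and 1.21 ± 0.16, or 2.31-fold, in G-NHX9-midi (adjusted p = 2.4e-07). The call in G-NHX9 was lost when any one of Empty replicates 1, 4 and 5 or G-NHX9 replicates 2, 3 and 4 was left out (adjusted p between 0.072 and 0.14). In the other constructs its means were 11.2 to 12.6 CPM, beside 11.3 ± 2.77 CPM in Empty, and none passed the test.

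Snhg4 was the single member that rose in all 6 constructs. Its level was 6.67, 5.85, 7.02, 8.03 and 5.85 CPM in Empty, 10.3, 13.2, 11.4, 17.1 and 17.0 CPM in G-NHX9, and 14.8, 14.3, 12.4, 13.5 and 12.5 CPM in G-NHX9-midi. The lowest library of every construct but G-NHX9-midi-21FGAA (7.56 CPM) was above the highest Empty library. The rise was 1.05 ± 0.19 in G-NHX9 (adjusted p = 7.1e-05), 1.01 ± 0.19 in G-NHX9-midi (adjusted p = 6.7e-05), 0.95 ± 0.19 in G-NHX9-21FGAA (adjusted p = 0.00045), 0.72 ± 0.19 in G-NHX9-DDNA (adjusted p = 0.0092), 0.64 ± 0.19 in G-NHX9-8FA (adjusted p = 0.012) and 0.61 ± 0.19 in G-NHX9-midi-21FGAA (adjusted p = 0.026). In G-NHX9-21FGAA, replicates 4 and 5 were at 16.4 and 20.1 CPM and the other libraries at 9.11 to 9.61 CPM. The calls in G-NHX9-8FA and in G-NHX9-midi-21FGAA were lost without 1 and without any one of 4 libraries, respectively (G-NHX9-8FA replicate 4, adjusted p = 0.057, and Empty replicates 2 and 5 and G-NHX9-midi-21FGAA replicates 4 and 5, adjusted p up to 0.073).

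Snhg8, which holds Snora24, rose by 0.45 ± 0.13 in G-NHX9-8FA (adjusted p = 0.0095) and 0.41 ± 0.13 in G-NHX9-midi (adjusted p = 0.011). Its levels there were 31.8 ± 4.21 and 31.0 ± 1.72 CPM, beside 23.3 ± 5.19 CPM in Empty. Empty replicate 1, at 29.7 CPM, overlapped both. The calls were lost without Empty replicate 5, the lowest at 15.9 CPM (adjusted p = 0.063 and 0.071), and that in G-NHX9-8FA also without its replicate 4 (adjusted p = 0.06) and with only the groups compared (0.44, adjusted p = 0.052). Among mice of 8 weeks only, the differences were 0.24 and 0.21 (adjusted p = 0.24 and 0.27). Snhg3 was at 6.46 ± 0.593 CPM in Empty and at means of 7.64 to 8.41 CPM in the constructs, and its log2 differences of 0.24 to 0.38 (SE 0.16) did not pass the test in any (adjusted p between 0.062 in G-NHX9-midi and 0.33). In G-NHX9-midi every library of Snhg3 was above every Empty library, and it passed with the replicate block (0.37, adjusted p = 0.036). With the same block Snhg1 passed in G-NHX9-midi-21FGAA (0.45, adjusted p = 0.019). Rcc1, which overlaps Snhg3 on its strand, rose by 0.64 to 0.82 in all constructs but G-NHX9-8FA (0.34, adjusted p = 0.11, edgeR). The part of its reads in the level of Snhg3 was not tested.

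**Figure D2:**
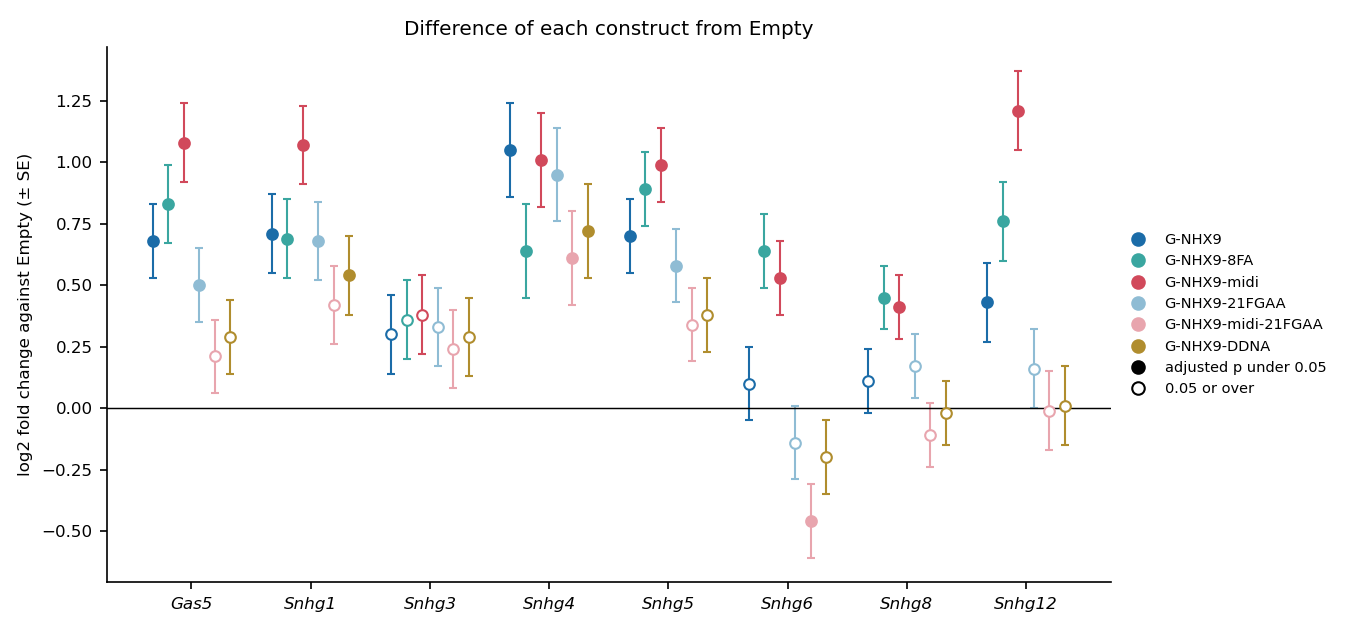
Points are the log2 fold change of each host gene between a construct and Empty, with bars of 1 SE, from 5 libraries a group. Filled points passed an adjusted p of 0.05 and open points did not. Snhg4 is filled in all 6 constructs and Snhg3 in none, and the values of Gas5, Snhg1, Snhg4 and Snhg12 in G-NHX9-midi exceed 1.

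Empty replicates 4 and 5, from the older mice, held the lowest levels of Gas5, and replicate 5 the lowest of every member (for Snhg4 level with replicate 2). They also had the highest shares of mitochondrial counts of all libraries, at 4.06% and 4.13% beside 2.28% to 2.93% in the other Empty libraries. G-NHX9-DDNA replicate 5, at 3.86%, held the lowest Gas5, Snhg1 and Snhg5 of its group, and without it Snhg5 passed in G-NHX9-DDNA (0.49, adjusted p = 0.022). The part of this share in the levels was not tested. In a fit without these 2 Empty libraries and G-NHX9 replicate 1, which leaves mice of 8 weeks only, 3 members rose in G-NHX9, 6 in G-NHX9-8FA, 5 in G-NHX9-midi, 2 in G-NHX9-21FGAA, 1 in G-NHX9-DDNA and 0 in G-NHX9-midi-21FGAA. The share of all genes called in that fit was not taken. It has fewer libraries, so its counts cannot be set against the shares of the main fit. The difference of Gas5 in G-NHX9-21FGAA was 0.29 there (adjusted p = 0.20). Library scaling also differed with the construct, since TMM factors were 0.899 to 0.955 in Empty and 0.990 to 1.11 in G-NHX9. With unscaled library sizes the median of all genes against Empty moved up by 0.18 in G-NHX9, by 0.18 in G-NHX9-21FGAA and by 0.12 in G-NHX9-midi, and Snhg3 then passed the test in these 3 constructs (0.49, 0.52 and 0.50 on the log2 scale).

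Compared with G-NHX9 itself, at most 2 of 8 host genes passed the test in a construct. At an unadjusted p under 0.05 there were 5 in G-NHX9-midi and 4 in G-NHX9-8FA, and 7 of 8 members had a positive difference in G-NHX9-midi. In G-NHX9-midi, Snhg12 rose by 0.78 ± 0.16 (adjusted p = 0.00046), with all libraries above those of G-NHX9, as for Snhg8 (2 of 8 members, 5.42% of all genes), and Snhg6 by 0.43 ± 0.15 (adjusted p = 0.046), which makes 2 of 8 members beside 8.5% of all genes. The Snhg6 call was lost with RLE size factors (adjusted p = 0.053) and in 7 of the fits that left out 1 library of either group (adjusted p between 0.05 and 0.18). Gas5 missed the threshold at 0.40 ± 0.15 (adjusted p = 0.068) and passed it with the replicate number as a block (0.39, adjusted p = 0.036). In G-NHX9-8FA 1 of 8 members rose, Snhg6, by 0.54 ± 0.15 (adjusted p = 0.015, 6.43% of all genes), and without its high replicate 4 the difference was 0.30 (adjusted p = 0.13). Without G-NHX9 replicate 5 it was 0.44 (adjusted p = 0.083). All libraries were above those of G-NHX9 for Snhg8 and Snhg12 (2 of 8 members, 3.72% of all genes). With the replicate block, Snhg8 passed as well (0.34, adjusted p = 0.039). In G-NHX9-DDNA 0 members passed in edgeR (10.7% and 11.4% of all genes rose and fell), with 3 at an unadjusted p under 0.05 and 1 in DESeq2. The differences of Gas5 and Snhg12 there were -0.39 ± 0.15 and -0.42 ± 0.16 (adjusted p = 0.064 and 0.052), and both passed with the replicate block (adjusted p = 0.029 and 0.034).

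For 4 of the 8 host genes, the 21FGAA mutations went with a larger loss of transcript in the midi background than in the full-length one. The mutations lie in the C-terminal part of the FG region. G-NHX9-21FGAA therefore keeps the N-terminal FG motifs, which G-NHX9-midi-21FGAA lacks. The background and the FG motifs that remain cannot be told apart. From G-NHX9-midi to G-NHX9-midi-21FGAA, 6 of 8 members fell, where 22.2% of all genes tested did, and in all 6 every midi-21FGAA library was below every midi library (15.9% of all genes). Snhg12 fell from 26 ± 4.18 to 11.2 ± 1.64 CPM, or by 1.22 on the log2 scale (SE 0.16, adjusted p = 1.4e-07). Snhg6 fell from 48.4 ± 5.92 to 24.5 ± 3.56 CPM (-0.98 ± 0.15, adjusted p = 3.7e-06) and Gas5 from 229 ± 35.8 to 125 ± 15.2 CPM (-0.87 ± 0.15, adjusted p = 2.7e-05). Zbtb37, which overlaps Gas5 on the opposite strand, also fell (-0.37 ± 0.14, adjusted p = 0.033, edgeR). Snhg5, Snhg1 and Snhg8 fell by 0.65, 0.64 and 0.52. The count was 6 in each of the fits that left out 1 library. Snhg4, at -0.40 ± 0.19 (adjusted p = 0.085), passed with the replicate block (-0.43, adjusted p = 0.028), and Snhg3 was at -0.14 ± 0.16 (adjusted p = 0.53). From G-NHX9 to G-NHX9-21FGAA, 0 of 8 members passed in edgeR at differences between -0.26 and 0.06 (8.91% and 8.34% of all genes rose and fell), with 0 at an unadjusted p under 0.05 and 0 in DESeq2.

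The difference between the 2 effects was tested as an interaction, the change with 21FGAA in the full-length background minus that in midi. It passed for 4 of 8 members, all positive, where 5.2% of all genes had a positive interaction. The interaction was 0.95 ± 0.22 for Snhg12 (adjusted p = 0.0034), 0.74 ± 0.22 for Snhg6 (adjusted p = 0.020), 0.58 ± 0.18 for Snhg8 (adjusted p = 0.031) and 0.68 ± 0.22 for Gas5 (adjusted p = 0.034). For Snhg1 and Snhg5 it was 0.61 ± 0.23 and 0.53 ± 0.21 (adjusted p = 0.075 and 0.10), and that of Snhg1 passed with the replicate block (0.60, adjusted p = 0.031). Against Empty, Snhg6 and Snhg8 did not pass in G-NHX9 (0.10 and 0.11, adjusted p = 0.67 and 0.55). Snhg12 and Snhg6 passed in every fit that left out 1 of the 20 libraries, whereas Gas5 was lost in 9 of these fits and Snhg8 in 4, at adjusted p up to 0.066 and 0.072. The libraries that Gas5 needed were G-NHX9 replicates 4 and 5, G-NHX9-21FGAA replicates 4 and 5, G-NHX9-midi replicates 1, 2 and 3 and G-NHX9-midi-21FGAA replicates 1 and 4, and those that Snhg8 needed were G-NHX9 replicate 5, G-NHX9-21FGAA replicates 1 and 4 and G-NHX9-midi-21FGAA replicate 4.

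**Figure D3:**
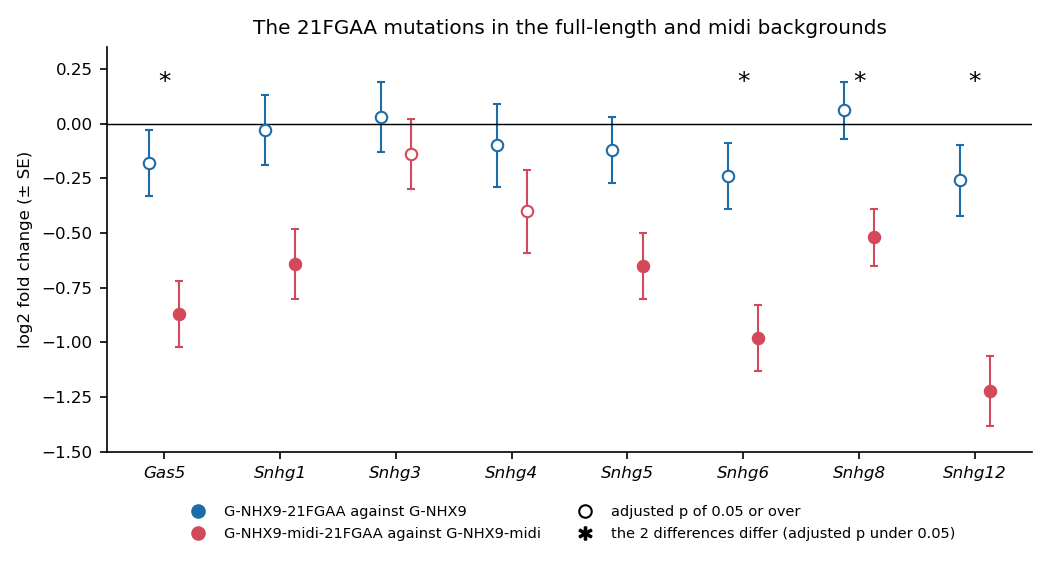
Points are log2 fold changes with bars of 1 SE for the 21FGAA mutations in the full-length background (blue) and in the midi background (red), from 5 libraries a group. Filled points passed an adjusted p of 0.05, and an asterisk marks a host gene whose 2 differences differed by the interaction test. All 8 red points lie below 0, between -1.22 and -0.14, and the blue points lie between -0.26 and 0.06.

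Markers of several blood cell types moved with the same groups. Markers of early granules (promyelocytes) also rose in most constructs, but in another order than the host genes. They summed to 126 to 583 CPM in Empty, 1050 to 1430 CPM in G-NHX9, 693 to 2080 CPM in G-NHX9-8FA, 594 to 1610 CPM in G-NHX9-midi, 930 to 1080 CPM in G-NHX9-21FGAA, 708 to 1510 CPM in G-NHX9-DDNA and 186 to 458 CPM in G-NHX9-midi-21FGAA. Of these 5 markers, 4 rose in G-NHX9, 4 in G-NHX9-8FA, 3 in G-NHX9-midi, 5 in G-NHX9-21FGAA and 5 in G-NHX9-DDNA, and all 5 fell from G-NHX9-midi to G-NHX9-midi-21FGAA. Their median log2 difference from Empty in G-NHX9-DDNA was 1.66, beside 0.29 for the host genes. From G-NHX9 to G-NHX9-midi their median was -0.10, beside 0.33 for the host genes. Elane, the neutrophil elastase, rose by 2.08 ± 0.44 in G-NHX9 (adjusted p = 0.00041).

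Among 7 stem and progenitor markers, Cd34 rose in all 6 constructs, by 2.57 in G-NHX9, 1.2 in G-NHX9-8FA, 0.89 in G-NHX9-midi, 2.48 in G-NHX9-21FGAA, 1.87 in G-NHX9-midi-21FGAA and 0.59 in G-NHX9-DDNA. Kit, the receptor of stem cell factor, fell by 0.88 in G-NHX9 and rose by 1.03 in G-NHX9-21FGAA, 1.38 in G-NHX9-midi-21FGAA and 0.74 in G-NHX9-DDNA. Gata2 fell by 0.89 in G-NHX9-8FA and by 0.88 in G-NHX9-midi. Of the 7, 4 rose and 1 fell in G-NHX9, and 3 rose and 2 fell in G-NHX9-midi. In G-NHX9-8FA 3 rose and 1 fell. In G-NHX9-21FGAA 4 rose, and 3 rose in each of G-NHX9-midi-21FGAA and G-NHX9-DDNA.

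Markers of mature cells followed other orders. The summed level of 10 erythroid markers was 224 to 685 CPM in Empty, 180 to 499 CPM in G-NHX9, 23.8 to 73.0 CPM in G-NHX9-8FA and 41.1 to 78.3 CPM in G-NHX9-midi, and 474 to 1530 CPM in G-NHX9-midi-21FGAA. Of the 10, 10 fell in G-NHX9-8FA and 9 in G-NHX9-midi, among them Slc4a1, the anion exchanger of red cells (-4.95 and -5.60), while 5 rose in G-NHX9-21FGAA, 8 in G-NHX9-midi-21FGAA and 2 in G-NHX9-DDNA. The 7 mast cell and basophil markers summed to 1100 to 3050 CPM in Empty, 647 to 996 CPM in G-NHX9, 470 to 891 CPM in G-NHX9-midi and 2330 to 5080 CPM in G-NHX9-midi-21FGAA, and Fcer1a, a chain of the IgE receptor, fell by 2.67 in G-NHX9 and by 2.80 in G-NHX9-midi. Of the 7, 4 fell in G-NHX9, 5 in G-NHX9-8FA and 5 in G-NHX9-midi, and 3 rose in each of G-NHX9-21FGAA and G-NHX9-midi-21FGAA. The 5 eosinophil markers summed to 1120 to 1570 CPM in Empty, 254 to 894 CPM in G-NHX9, 47.4 to 240 CPM in G-NHX9-8FA, 33.4 to 99.8 CPM in G-NHX9-midi and 570 to 1860 CPM in G-NHX9-midi-21FGAA. Of the 5, 4 fell in G-NHX9-8FA, and in G-NHX9-midi 4 fell and 1 rose, by 1.21. In G-NHX9-21FGAA and G-NHX9-midi-21FGAA 1 rose, and in G-NHX9-DDNA 2 rose. The 5 megakaryocyte markers summed to 526 to 947 CPM in Empty, 113 to 256 CPM in G-NHX9-8FA and 89.1 to 173 CPM in G-NHX9-midi. All 5 fell in G-NHX9-8FA and in G-NHX9-midi, and 2 fell in G-NHX9. Of 7 macrophage markers, 3 rose and 2 fell in G-NHX9, 4 fell in G-NHX9-midi and 3 fell in G-NHX9-21FGAA. The lymphoid marker Cd3g fell by 2.04 in G-NHX9-midi, at low levels in both groups (0.997 ± 0.29 CPM in Empty and 0.234 ± 0.111 CPM in G-NHX9-midi). Late neutrophil markers, 8 in number, summed to 8910 to 12800 CPM in Empty and 15200 to 33700 CPM in G-NHX9-8FA, where 5 of them rose. In G-NHX9-midi 3 of them rose and 3 fell, and in G-NHX9-DDNA 2 rose and 1 fell. In each of G-NHX9, G-NHX9-21FGAA and G-NHX9-midi-21FGAA 1 fell and 0 rose. In G-NHX9, 0 of the 10 erythroid markers passed the test in edgeR, with 0 at an unadjusted p under 0.05 and 0 in DESeq2. In the same comparison 4 of 5 early granule markers rose. There, 4 of 7 mast cell and basophil markers, 2 of 5 eosinophil and 2 of 5 megakaryocyte markers fell. The part of these cell types in the levels of the host genes was not tested.

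Other genes of the same functions were read from lists. Of 9 further non-coding hosts that passed the filter on low counts, 5 rose in G-NHX9, 7 in G-NHX9-8FA, 7 in G-NHX9-midi and 1 in G-NHX9-midi-21FGAA, with medians of 0.56, 0.62, 0.82 and 0.05. Zfas1, the host of Snord12 family snoRNAs, rose from 34.6 ± 4.64 to 53.0 ± 8.88 CPM in G-NHX9 (0.61 ± 0.17, adjusted p = 0.0058), and Snhg17 from 13.5 ± 0.997 to 28.5 ± 2.37 CPM in G-NHX9-midi (1.08 ± 0.10, adjusted p = 3.5e-10). Epb41l4aos fell in G-NHX9-midi-21FGAA and G-NHX9-DDNA, by 0.82 and 0.76. Of 18 protein-coding hosts of snoRNAs, 11 rose in G-NHX9, 12 in G-NHX9-midi and 5 in G-NHX9-midi-21FGAA, with medians of 0.33, 0.56 and 0.23.

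Genes for the proteins that bind snoRNAs were read next. Of 17 genes of snoRNP core and assembly proteins, 13 rose in G-NHX9, 11 in G-NHX9-8FA, 14 in G-NHX9-midi, 10 in G-NHX9-21FGAA, 9 in G-NHX9-DDNA and 6 in G-NHX9-midi-21FGAA, with medians of 0.64, 0.41, 0.81, 0.42, 0.51 and 0.31. Dkc1, the pseudouridine synthase of H/ACA particles, rose by 1.51 ± 0.20 in G-NHX9 (adjusted p = 3.3e-07) and by 1.12 ± 0.19 in G-NHX9-midi-21FGAA (adjusted p = 0.00046). Nop58, a core protein of box C/D particles, rose by 1.11 ± 0.24 in G-NHX9 and 0.86 ± 0.24 in G-NHX9-midi-21FGAA (adjusted p = 0.00061 and 0.014). Dkc1 and Nop58 are themselves hosts of snoRNAs and stand in both lists.

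Most ribosomal protein genes were higher in G-NHX9-8FA and G-NHX9-midi, and none passed as higher in the constructs with 21FGAA or DDNA. Of 79 cytosolic ribosomal protein genes, 37 rose in G-NHX9, 76 in G-NHX9-8FA and 77 in G-NHX9-midi, with medians of 0.31, 0.54 and 0.64. In G-NHX9-21FGAA, where 4 of the 8 host genes rose, 0 of 79 passed in edgeR, with 6 at an unadjusted p under 0.05 and 2 in DESeq2, and the median was -0.06. In G-NHX9-DDNA 4 fell (median -0.16). In G-NHX9-midi-21FGAA 24 fell, and from G-NHX9-midi to G-NHX9-midi-21FGAA 78 of 79 fell, with a median of -0.90 beside -0.65 for the host genes. From G-NHX9 to G-NHX9-21FGAA 49 of 79 fell with a median of -0.37, a comparison in which 0 of the 8 host genes passed, and the interaction passed for 49 of 79, all positive. Rps23 rose by 0.98 ± 0.13 in G-NHX9-midi (adjusted p = 3.6e-07). Ribosomal protein genes have near-identical pseudogene copies, so their counts are uncertain to the extent that reads were divided between them.

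**Figure D4:**
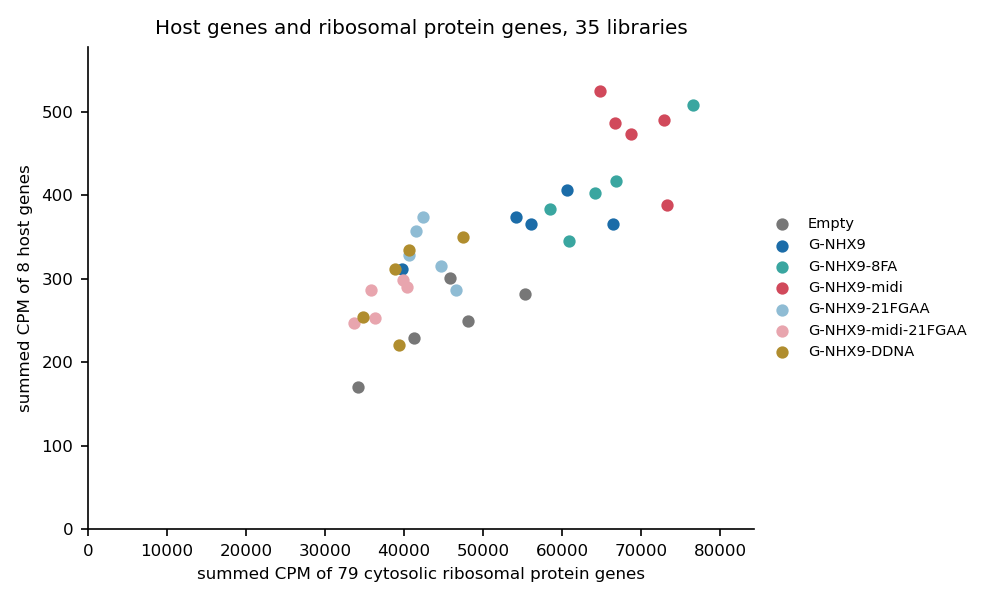
Each of the 35 points is one library, with the summed CPM of the 79 cytosolic ribosomal protein genes on the horizontal axis and the summed CPM of the 8 host genes on the vertical axis, both from 0. The G-NHX9-midi libraries lie at 388 to 525 CPM of host genes and the G-NHX9-midi-21FGAA libraries at 247 to 298 CPM.

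Factors of the decay and translation steps are given beside the 16.9% of all genes that rose in G-NHX9 and the 20.5% in G-NHX9-midi. Of 10 nonsense-mediated decay factors, 1 rose in G-NHX9 (Smg9, 0.26 ± 0.10, adjusted p = 0.036) and 1 in G-NHX9-midi (Upf3a, 0.35 ± 0.14, adjusted p = 0.036), and 0 passed in edgeR in the other 4 constructs, where between 0 and 2 were at an unadjusted p under 0.05 and at most 1 passed in DESeq2. Of 14 genes of the mTOR, LARP1 and Myc control of translation, 1 rose and 1 fell in G-NHX9, and 3 rose and 2 fell in G-NHX9-midi. Myc rose by 0.98 ± 0.19 in G-NHX9 (adjusted p = 0.00019) and 0.72 ± 0.19 in G-NHX9-midi (adjusted p = 0.0029). Eif4ebp1, which binds the cap-binding factor and restrains translation of 5′TOP RNAs, rose by 0.55 ± 0.11 in G-NHX9-midi (adjusted p = 0.00012) and fell by 0.35 in G-NHX9-midi-21FGAA (adjusted p = 0.023).

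Most of the host genes varied together across libraries. Over the 35 libraries the Pearson correlation of log2 CPM between 2 members was positive in all 28 pairs, with a median of 0.64 and a range of 0.13 (Snhg4 and Snhg6) to 0.95 (Gas5 and Snhg5). These libraries share their construct within a group. With the group means subtracted, 26 of 28 were positive and the median was 0.42, with a range of -0.06 (Snhg4 and Snhg6) to 0.86 (Gas5 and Snhg5). Snhg6 followed the others least, at -0.06 to 0.35 with the other members. Correlations between pairs of other genes were not taken for comparison. The genes most like the mean of the members, out of 10300 at 5 CPM or more, were Exosc1, Nop10, 5430416N02Rik, Psmg1 and Taf1d, at r = 0.92, 0.92, 0.92, 0.92 and 0.91, and at 0.72 to 0.77 with the group means subtracted. Nop10 is a core protein of H/ACA particles, Exosc1 a subunit of the RNA exosome, and Taf1d a subunit of the RNA polymerase I factor SL1 whose gene also hosts snoRNAs. The median r over the 79 ribosomal protein genes was 0.77, and 0.53 with the group means subtracted, beside 0.04 and 0.03 over all genes ranked.

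Levels of Snora73a and Snora73b are set beside those of Snhg3. Snora73b was at 415, 638, 685, 502 and 538 CPM in Empty, at 386, 753, 720, 702 and 644 CPM in G-NHX9 and at 365, 291, 440, 438 and 465 CPM in G-NHX9-midi. G-NHX9 replicate 1, from the mouse of 11 weeks, lies far below the other G-NHX9 libraries, within the range of G-NHX9-midi. Replicate 1 was also the lowest in Empty (415 CPM) and in G-NHX9-21FGAA (288 CPM), both from mice of 8 weeks. It was not the lowest in the remaining groups, and the part of age was not tested. Neither snoRNA passed the test in edgeR or DESeq2 in any construct against Empty, with 1 at an unadjusted p under 0.05 (Snora73b in G-NHX9-midi, -0.47 ± 0.21, adjusted p = 0.074). It passed with the replicate block (-0.45, adjusted p = 0.04). Against G-NHX9, Snora73b fell in G-NHX9-midi by 0.68 (SE 0.21, adjusted p = 0.022, 11.2% of all genes lower) and in G-NHX9-DDNA by 0.62 (SE 0.21, adjusted p = 0.034), while Snhg3 was at 0.08 and -0.02. Without G-NHX9 replicate 2 or G-NHX9-midi replicate 2 the first call was lost (adjusted p = 0.056 and 0.069), and the second was lost without any one of 8 of the 10 libraries (adjusted p up to 0.097), all but G-NHX9 replicate 1 and G-NHX9-DDNA replicate 2. In G-NHX9-21FGAA, Snora73b was at -0.53 ± 0.21 (adjusted p = 0.085) and passed with the replicate block (adjusted p = 0.033). With the group means subtracted, the correlation with Snhg3 over 35 libraries was 0.57 for Snora73b and 0.66 for Snora73a, and 0.82 between the 2 snoRNAs. Annotated exons of Snhg3 cover 77.6% of Snora73a and 0% of Snora73b. How reads on the shared stretch were counted was not given, so Snora73a and Snhg3 may not be separate measures.

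**Figure D5:**
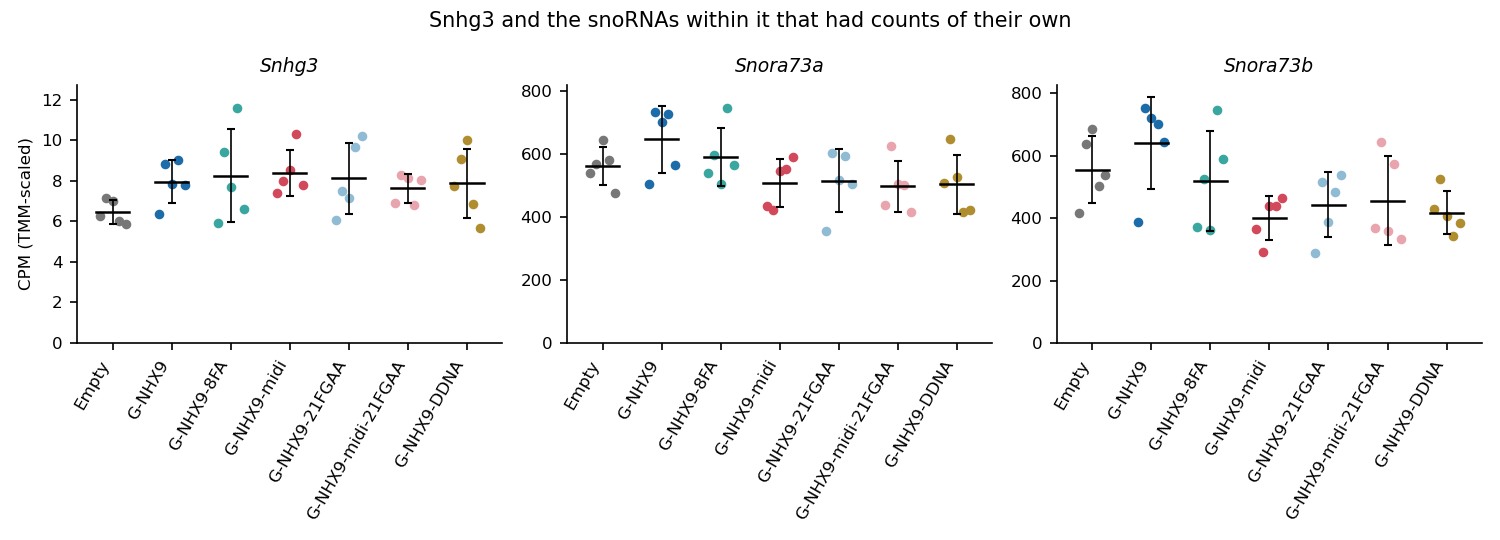
Points are TMM-scaled CPM of Snhg3 and of the 2 snoRNA genes within it in each of the 35 libraries, with the group mean and SD, on scales that start at 0. Snhg3 lies between 5.69 and 11.6 CPM, and Snora73b between 288 and 753 CPM with lower means in G-NHX9-midi (400 CPM) and G-NHX9-DDNA (418 CPM) than in G-NHX9 (641 CPM).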

How the data were processed

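Paired-end RNA-seq of lin- HSPCs was used, with 5 libraries for each of 7 groups. The authors deposited raw read counts for 49671 genes on mm10, without normalization. The submitters' processing notes name STAR 2.7.0d, HTSeq 0.11.2 and DESeq2, with no role or order. The annotation, strand setting and treatment of reads on overlapping genes were not given in the sources used here. The labels and the study's methods differ on read length and on the number of replicates.

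The tools were R 4.3.3 (edgeR 4.0.16, limma 3.58.1, DESeq2 1.42.0) and, for figures, Python 3.11.15, numpy 2.4.6, pandas 2.3.3 and matplotlib 3.10.9. Genes were kept by filterByExpr (17166 genes), scaled by TMM and fitted by quasi-likelihood with a mean for each of the 7 groups over all 35 libraries. SE is the log2 fold change divided by the root of F. P-values were adjusted over all tested genes in each of 11 comparisons and the interaction (threshold 0.05). On simulated counts for G-NHX9-midi against Empty (16798 genes), 91 of 100 genes changed by a factor of 2 and 100 of 100 changed by 4 were recovered, with 7 unchanged genes called. The log2 CPM behind correlations had a prior count of 2.

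Genes named are the 8 members, the hosted snoRNAs tested, for each list and construct against Empty at most 2 called genes with the largest change at a mean of 5 CPM or more, and the 5 genes most like the members. Neighbouring genes and markers used as checks were chosen after values were seen. The members and lists were chosen with earlier results of these data known. Positions come from GENCODE M21, in which 99.3% of identifiers were found, and 82.0% of snoRNA rows held no count. Limits for a count of 0 (3 counts) cover counting error only.

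Labels number the libraries 1 to 5 in each group. Deviations from group means had a mean correlation of 0.232 where numbers matched and -0.057 where they did not. Every pair exceeded 0.1 in 5 of the 11 comparisons (G-NHX9, G-NHX9-midi-21FGAA and G-NHX9-DDNA against Empty, G-NHX9-21FGAA and G-NHX9-DDNA against G-NHX9). The main fit used no pairing in any comparison. The replicate block was fitted as an alternative for all 11 comparisons and the interaction. Alternatives were unscaled library sizes, RLE size factors, no filter, a mean of at least 1 CPM, the replicate block, a fit to the groups compared, DESeq2 and leaving out each library.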

Additional observations from a re-analysis of the deposited data

Results flagged for a closer look

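Among 70 sets of 5 libraries (8 host genes and 2 snoRNAs in 7 groups), 2 had a library far from the others by Dixon's ratio, where chance flags about 1 in 20. Snhg6 in G-NHX9-8FA replicate 4 was at 84.3 CPM and the next library at 52.1 CPM. Snhg8 in G-NHX9 replicate 5 was at 19.9 CPM and the next at 25.7 CPM.

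The effect of 21FGAA differed between the full-length and midi backgrounds for 4 of the 8 host genes by the interaction test, where 5.2% of all genes had a positive interaction. The differences, full-length minus midi on the log2 scale, were 0.68 for Gas5 (adjusted p = 0.034, edgeR), 0.74 for Snhg6 (adjusted p = 0.02), 0.58 for Snhg8 (adjusted p = 0.031) and 0.95 for Snhg12 (adjusted p = 0.0034). Those of Gas5 and Snhg8 were lost in several fits that left out 1 library, as given above.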

How the results depend on the processing

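Of 36 calls of a member between groups, 23 held under all alternatives and without any 1 library of their groups, and 0 called differences changed sign. Differences that were called in neither fit changed sign 51 times, at sizes up to 0.16 with the alternative. Counts of members called moved by over 1.5 times as follows, and the causes were not tested. In G-NHX9-midi-21FGAA against Empty the count of 2 was 1 with no filter, 0 for mice of 8 weeks only (an alternative chosen after the data were seen, with fewer libraries), and 0 to 4 without 1 library. In G-NHX9-DDNA against Empty it was 1 with only the groups compared or mice of 8 weeks only, and 1 to 3 without 1 library. In G-NHX9 and G-NHX9-21FGAA against Empty it was 3 and 2 for mice of 8 weeks only. Against G-NHX9, the count of 1 in G-NHX9-8FA was 2 with the replicate block, 0 with only the groups compared and 0 to 1 without 1 library. That of 2 in G-NHX9-midi was 1 with unscaled library sizes, RLE size factors, no filter, a mean of at least 1 CPM or only the groups compared, and 1 to 3 without 1 library. That of 0 in G-NHX9-DDNA was 2 with unscaled library sizes or the replicate block, 1 with a mean of at least 1 CPM, DESeq2 or mice of 8 weeks only, and 0 to 2 without 1 library. The interaction count of 4 was 2 to 5 without 1 library. Of the 2 snoRNAs, 1 was called against Empty in G-NHX9 with unscaled library sizes, and in G-NHX9-midi with the replicate block, with only the groups compared, and in 0 to 1 without 1 library. Against G-NHX9, 2 were called in G-NHX9-midi with unscaled library sizes or mice of 8 weeks only (0 to 1 without 1 library), 1 in G-NHX9-21FGAA with the replicate block or mice of 8 weeks only (0 to 1), and 2 in G-NHX9-DDNA with unscaled library sizes, the replicate block or mice of 8 weeks only (0 to 2). The replicate block moved no other count by over 1.5 times.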
